A study of Homo sapiens with 12 samples.

Results

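The genes described here are 32 targets of the transcription factor p53, read in doxorubicin-treated human lung fibroblasts. They were taken by name from a fixed list, which was chosen with earlier results of these data known. All 32 were found once each among the 61541 gene identifiers of the deposited tables. Of the 32, 31 passed the expression filter that kept 12329 genes for testing. TNFRSF10C, a decoy receptor for the death ligand TRAIL, held too few reads and was not tested.

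The cells were IMR90, an established line of primary human lung fibroblasts with a wild-type genotype per the labels. All of them received doxorubicin, an anthracycline that traps topoisomerase on DNA and leaves strand breaks, for 24 h and were then kept in culture for at least 8 days so that they became senescent. The 4 groups were polystyrene plastic with 100 nM, a gel of 2 kPa with 100 nM, plastic with 250 nM and the gel with 250 nM doxorubicin, with 3 libraries of polyadenylated RNA in each and 12 in all. No untreated cells were analysed here, so each value compares substrates or doses among treated cells and shows nothing of the response to the drug itself. The study's title asks how stiffness of the substrate shapes senescent lung fibroblasts, and the targets of p53 are read here as part of that question.

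The p53 protein is stabilised when kinases such as ATM report broken DNA, and it then binds paired decamer sites near its target genes and raises their transcription. The targets cover several branches of the damage response: inhibitors that switch p53 off again, genes that open the mitochondrial or death receptor route to apoptosis, repair enzymes, metabolic and antioxidant genes, brakes on the cell cycle and secreted factors. Senescent fibroblasts are known to hold a persistent damage signal through p53 while resisting apoptosis.

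The promoters of 6 members held the letters of such a site, and those stretches are printed to show what such a site looks like in genes of the list. RefSeq promoters (GRCh38.p14) of 26 of the 32 members were searched, from 250 bases before to 50 bases after each transcript start. PHLDA3, RRM2B, GADD45A, TNFRSF10B, TP53INP1 and TNFRSF10C were not in the promoter table. The motif was the consensus p53 decamer, placed as 2 adjacent decamers with no spacer. Each decamer kept its core C and G and had at most 2 mismatches, and the pair had at most 3. The motif reads the same on both strands, so a single search covered both. Capitals mark the 20 bases of the decamer pair, 5′ to 3′ on the gene's strand.
MDM2: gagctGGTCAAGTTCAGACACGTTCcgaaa
PTCHD4: atgggAGGCTTGCCCAGACTTGCCCagtga
DDB2: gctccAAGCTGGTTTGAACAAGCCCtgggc
AEN: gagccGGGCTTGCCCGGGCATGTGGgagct
FAS: ctcctGGACAAGCCCTGACAAGCCAagcca
GDF15: tgcacAGCCATGCCCGGGCAAGAACtc

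In MDM2 the printed stretch lies at chr12:68808918-68808947 on the plus strand, in an intron of the GENCODE 29 gene, and its decamers begin 94 bases before a RefSeq start with 2 mismatches. The PTCHD4 stretch, at chr6:48111193-48111222 on the minus strand, matched the consensus with 0 mismatches and lies 42504 bases upstream of the gene as GENCODE 29 draws it, 20 bases before another RefSeq start. The DDB2 stretch at chr11:47214964-47214993, plus strand, had 1 mismatch and the AEN stretch at chr15:88621301-88621330, plus strand, had 2. Both overlap an exon in GENCODE 29, as do the FAS stretch at chr10:88991304-88991333, plus strand with 2 mismatches, and the GDF15 stretch at chr19:18386181-18386207, plus strand with 3. In GDF15 the decamers begin 29 bases after the start. A pair with at most 3 mismatches stood in 23.1% of the 26 members and in 1.19% of the 27305 symbols of the promoter table, where a gene with several listed starts is searched at each. The mismatch limit was chosen after the counts at several limits were known. A match describes letters only, and no match says nothing about binding elsewhere.

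Library totals ran from 5887056 to 7351916 expected counts at 100 nM and from 2229069 to 2730309 at 250 nM. Molecular identifiers are mentioned in the file names of the 250 nM libraries alone, so dose and library set cannot be told apart in any dose comparison. Replicate 1 of plastic at 100 nM and replicate 1 of gel at 250 nM stood apart: 3 ribosomal DNA loci took 14.34% and 13.17% of their counts, against 24.19% to 30.72% in the other 10 libraries. Replicate 1 of gel at 250 nM also had the fewest genes with a count, 14423, and the lowest mean correlation of log2 CPM with its own group, 0.8446. Replicate 1 of plastic at 100 nM had 18824 such genes and a correlation of 0.9375. Results that rest on these 2 are marked below, in part with values without them. All 10 fibroblast markers were tested, led by FN1 at 6852 CPM, while 0 of 7 leukocyte, 1 of 7 endothelial, 3 of 5 pericyte and 4 of 9 epithelial markers passed the filter. Summed epithelial markers ran from 45.02 to 117.5 CPM at 100 nM on both substrates and from 92.17 to 222.7 CPM at 250 nM, and summed pericyte markers from 53.72 to 83.67 and from 96.46 to 139.9 CPM. They were thus higher at 250 nM for pericytes, and their part in the dose results below was not tested. Endothelial markers, of which TEK averaged 20.89 CPM and no other more than 0.216 CPM, summed to 16.42 to 31.23 CPM on plastic and 7.286 to 12.7 CPM on gel at 100 nM. At 250 nM they summed to 31.45 to 38.49 and 9.693 to 30.73 CPM, so they were lower on gel at both doses and higher at 250 nM on plastic. Their part in the results was not tested. In bulk RNA, fewer cells of a type and less RNA per cell cannot be told apart.

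Per transcript length, the negative regulator MDM2 was the most abundant of the 32 in these cells. MDM2, the ubiquitin ligase that marks p53 for destruction, averaged 334 TPM (transcripts scaled for length and to the same library total) over the 12 libraries and ranged from 201 to 666 TPM. The secreted stress factor GDF15 at 114 TPM, the repair and stress protein GADD45A at 110.5 TPM and the cyclin CCNG1 at 103 TPM followed, and their ranges overlapped. At the other end stood the patched-domain gene PTCHD4 at 1.75 TPM and TNFRSF10C at 0.929 TPM. The order depends on the transcripts that RSEM assigned: the length it gave MDM2 was only 476 to 822 bases and that of ZMAT3 5546 to 8794 bases. ZMAT3, an RNA-binding splicing regulator, had the highest read level of the members, 340 CPM (reads scaled to the same library total), but averaged 44.2 TPM.

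**Figure D1:**
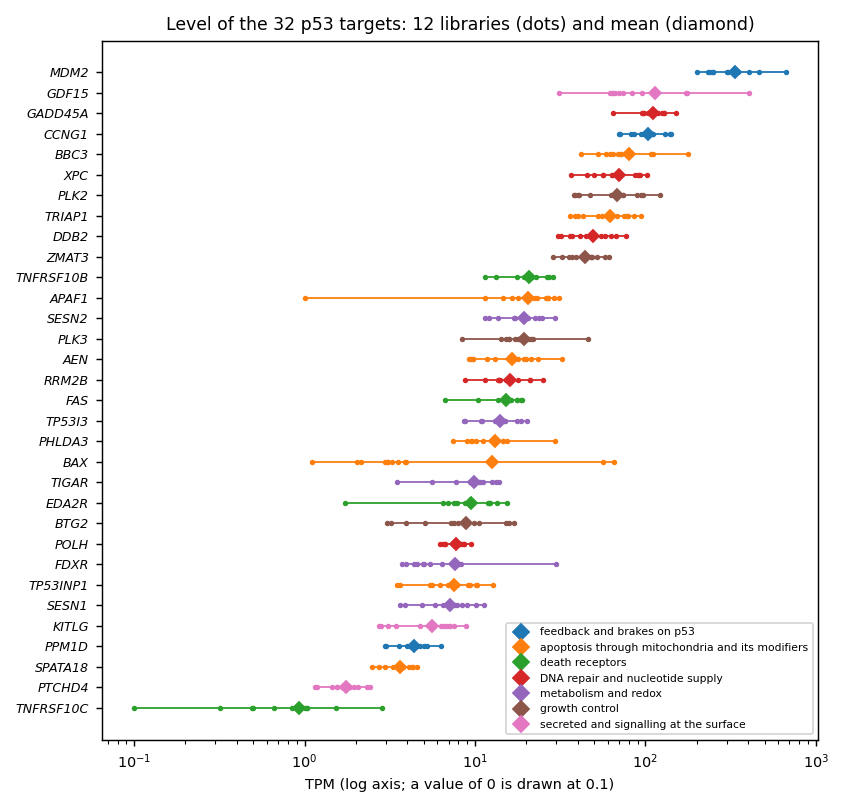
Level of each of the 32 p53 targets in TPM on a log axis, with dots for the 12 libraries, a line over their range and a diamond at the mean, coloured by branch. MDM2 averages 334 TPM at the top and TNFRSF10C 0.929 TPM at the bottom, and the lines of BAX, APAF1, EDA2R and GDF15 are wide.

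Members differed in how far the 3 libraries of a group spread. Pooled over the groups, the SD of log2 CPM was smallest in SESN1 at 0.12 and ZMAT3 at 0.16. It was largest in BAX at 1.54, EDA2R at 0.97, APAF1 at 0.88 and GDF15 at 0.84, all 4 of them genes in which single libraries lay far from the rest.

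No p53 target was called between substrates at either dose by the test used here, where few of all genes were called. The median standard error of a member's log2 change was 0.261 at 100 nM and 0.271 at 250 nM. A count of 0 therefore does not show that substrate had no effect. Gel against plastic at 100 nM gave 0 of 31 tested members at an edgeR adjusted p under 0.05 (background 0.227% of all genes), with 4 members at an unadjusted p under 0.05 where 9.9% of all genes reached that. At 250 nM the count was again 0 of 31 (background 0.00811%), with 3 at an unadjusted p under 0.05 (background 10%). The average over both doses gave 0 of 31 (background 0.754%) and 8 at an unadjusted p under 0.05 (background 12.5%). The difference between the gel effects at the 2 doses gave 0 of 31 (background 0%) and 1 at an unadjusted p under 0.05, BAX (background 6.32%).

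More members had a positive than a negative fitted change with gel. At 100 nM 22 of 31 members had a positive log2 change (background 48.9%) and the median was 0.126, against -0.011 over all genes tested. At 250 nM 23 were positive (background 48%) and the median was 0.225, against -0.021 over all genes. The median log2 CPM of the members in a library had an SD within groups of 0.155. It overlapped between substrates, at 5.01 to 5.35 on plastic and 5.03 to 5.39 on gel at 100 nM, and 5.41 to 5.65 and 5.59 to 5.78 at 250 nM. All 3 gel libraries lay above all 3 plastic libraries in 6 members at 100 nM (APAF1, TP53INP1, XPC, RRM2B, GDF15 and PTCHD4), where 9.6% of all genes did so, and below them in SESN1, where 9.4% did. At 250 nM all gel libraries lay above all plastic ones in BAX, PHLDA3, TNFRSF10B and BTG2 (4 members, background 7.4%) and below them in SESN1 (background 7.6%).

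The counts of 0 did not hold for all tools. The limma-voom fit with sample weights called 1 member at 100 nM, TP53INP1, and 2 over both doses, TP53INP1 and XPC, all higher on gel. Without the expression filter edgeR called 2 members at each dose, BAX and GDF15. BAX was lower on gel at 100 nM and higher at 250 nM, each time through 1 library that stood apart. With both of these left out, and the filter kept, its log2 changes were 0.18 and 0.74, and that of GDF15 at 250 nM was -0.08. DESeq2 called 0 in each of the substrate comparisons. How many of all genes these other fits called is not given here.

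**Figure D2:**
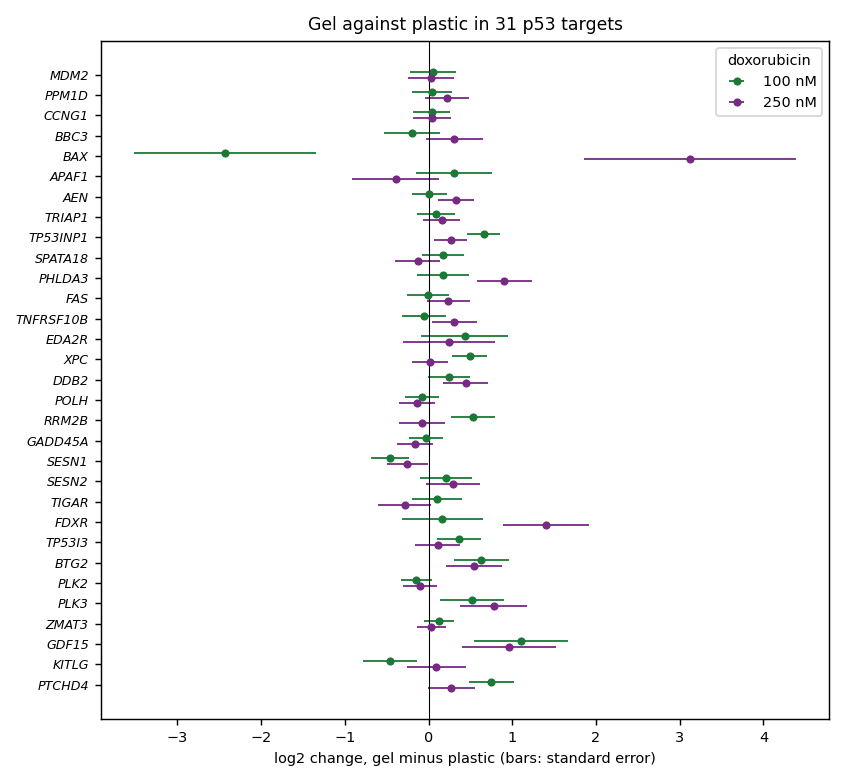
Fitted log2 change of gel against plastic for the 31 tested p53 targets at 100 nM (green) and 250 nM (purple), with bars of 1 standard error, genes in order of branch. Most points lie within 1 log2 unit of 0, and BAX lies at -2.43 at 100 nM and 3.13 at 250 nM with the widest bars.

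Between the libraries of the 2 doses, which are also 2 library sets of different depth, 7 of the members differed. At 250 against 100 nM on plastic 6 of 31 were called, which is 19.4% of those tested against a background of 8.52% of all genes. Of these, 5 were higher (background 4.04%) and 1 was lower (background 4.48%). On gel 6 of 31 were called, again 19.4%, against a background of 13.8%, with 4 higher (background 6.91%) and 2 lower (background 6.9%). The nuclease AEN, the apoptosis inhibitor TRIAP1, the autophagy and apoptosis regulator TP53INP1 and the quinone reductase TP53I3 rose on both substrates, and the kinase PLK2 fell on both. The damage sensor XPC rose on plastic and the ribonucleotide reductase subunit RRM2B fell on gel. These 5 shared genes are 83.3% of each list of 6. Over all genes, 586 were called in the same direction on both substrates, which is 55.8% of those called on plastic and 34.4% of those called on gel.

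The median member change with dose was 0.240 on plastic and 0.230 on gel, against -0.035 and -0.019 over all genes. The groups did not overlap in 11 members on plastic and 10 on gel, where 35.8% of all genes did not overlap in each comparison, so that share was close to the background. The counts of calls rest on single libraries in part. On plastic, leaving out replicate 1 of plastic at 100 nM gave 3 calls, and leaving out replicate 2 or replicate 3 of plastic at 250 nM gave 1 each. On gel, leaving out replicate 1 or replicate 2 of gel at 100 nM gave 2 each. With both libraries that stood apart left out the counts were 6 on plastic and 7 on gel. For these refits the share of all genes called is not given here, and the backgrounds above belong to the fit of all libraries.

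**Figure D3:**
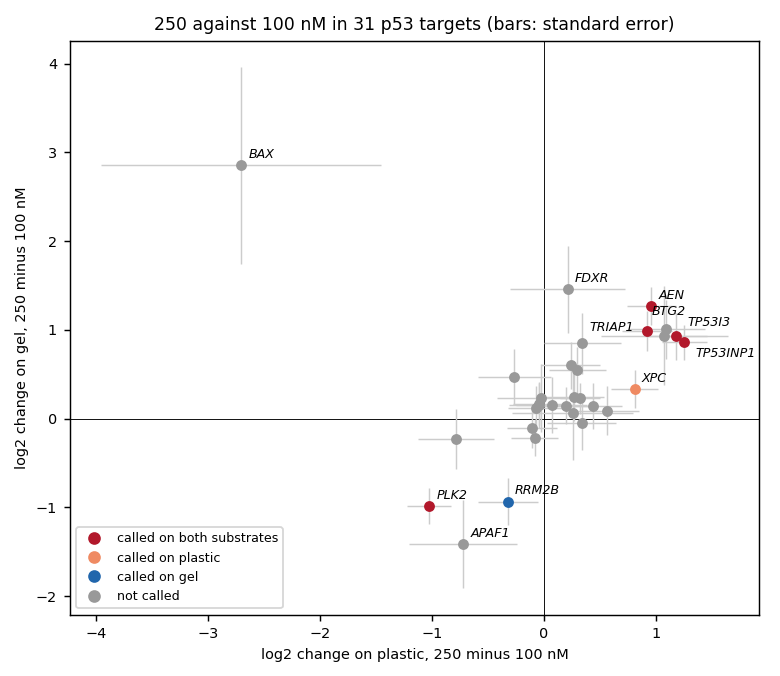
Fitted log2 change of 250 against 100 nM on plastic (x axis) and on gel (y axis) for the 31 tested p53 targets, with bars of 1 standard error and colour for the calls at an edgeR adjusted p under 0.05. AEN, TRIAP1, TP53INP1 and TP53I3 lie near 1 on both axes and PLK2 near -1 on both, while BAX lies at -2.70 on plastic and 2.85 on gel and is not called.

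The genes that restrain p53 gave no call in any comparison. In each set of 3 values below the replicates stand in the order of their numbers. Each rise or fall with dose below is also a difference between the 2 library sets, and these cannot be told apart. MDM2 (chr12:68808176-68850686 in GENCODE 29) measured 166, 124 and 162 CPM on plastic and 199.8, 119 and 151 CPM on gel at 100 nM. At 250 nM MDM2 measured 217, 161 and 166 CPM on plastic and 268, 133 and 155 CPM on gel. The groups overlapped in every comparison of 2 groups, and the fitted log2 changes with gel were 0.05 ± 0.27 (SE) at 100 nM and 0.03 ± 0.27 at 250 nM. At 250 nM the overlap of gel with plastic rests on replicate 1 of gel, a library that stood apart. Replicates 2 and 3 of gel lay below all plastic values at that dose. With dose MDM2 moved by 0.27 on plastic and 0.24 on gel, each within 1 SE of 0.

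CCNG1, cyclin G, which recruits a phosphatase to MDM2, measured 113, 150.4 and 107 CPM on plastic and 92.0, 159 and 129 CPM on gel at 100 nM. Its values at 250 nM were 95.6, 128 and 121 CPM on plastic and 112, 111 and 132 CPM on gel. No group stood out, and its fitted changes with gel were 0.04 at each dose, with standard errors of 0.22 and 0.23. PPM1D, the phosphatase WIP1 that removes damage marks from p53 and its kinases, ranged from 10.2 to 16.0 CPM and overlapped between all groups compared.

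Among the genes of mitochondrial apoptosis and its modifiers, 3 of 8 rose with dose on each substrate, where 4.04% of all genes were called higher on plastic and 6.91% on gel. TP53INP1 (chr8:94925972-94949411) was the member with the smallest adjusted p on plastic. It measured 27.4, 20.4 and 19.5 CPM on plastic and 32.7, 34.8 and 38.9 CPM on gel at 100 nM, and 55.9, 46.9 and 57.7 CPM on plastic and 71.7, 66.0 and 55.2 CPM on gel at 250 nM. Every 250 nM library lay above every 100 nM library of the same substrate. The rise was 2.38-fold on plastic, from 22.4 ± 4.30 to 53.5 ± 5.77 CPM (SD, n = 3), with an edgeR adjusted p of 0.00509. On gel it was 1.81-fold, from 35.5 ± 3.19 to 64.3 ± 8.39 CPM, with an edgeR adjusted p of 0.0153. At 100 nM the 3 gel libraries of TP53INP1 also lay above the 3 plastic ones, a log2 change of 0.66 ± 0.20 (SE) that missed the threshold (edgeR adjusted p = 0.263, and 0.0238 by limma-voom with sample weights).

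AEN (chr15:88621296-88632282), a nuclease that takes part in apoptosis after damage, measured 26.3, 31.7 and 40.4 CPM on plastic and 32.3, 28.9 and 37.9 CPM on gel at 100 nM. At 250 nM AEN measured 67.9, 63.4 and 60.1 CPM on plastic and 98.5, 74.8 and 65.7 CPM on gel. The doses did not overlap on either substrate, while plastic and gel overlapped at both doses. The rise was 1.94-fold on plastic (log2 0.96 ± 0.22 SE, edgeR adjusted p = 0.0185) and 2.41-fold on gel (log2 1.27 ± 0.22, edgeR adjusted p = 0.0051). Leaving out the plastic 100 nM library that stood apart gave 0.83 on plastic, which was not called (edgeR adjusted p = 0.0586).

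TRIAP1 (chr12:120443961-120446412) codes for a small mitochondrial protein that opposes caspase activation. Its values at 100 nM were 38.3, 60.1 and 40.4 CPM on plastic and 41.7, 45.9 and 59.9 CPM on gel, and at 250 nM 82.8, 86.8 and 93.1 CPM on plastic and 93.9, 118 and 80.9 CPM on gel. All 6 libraries at 250 nM exceeded all 6 at 100 nM. It rose 1.89-fold on plastic (edgeR adjusted p = 0.0251) and 1.98-fold on gel (edgeR adjusted p = 0.0151).

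The classical killers of the mitochondrial route did not pass the test. BBC3, which codes for PUMA, the BH3-only protein that frees BAX, measured 121, 57.9 and 90.2 CPM on plastic and 84.5, 67.5 and 82.98 CPM on gel at 100 nM. At 250 nM BBC3 measured 137, 107 and 97.8 CPM on plastic and 231, 108 and 84.3 CPM on gel. The value of 231 CPM belongs to replicate 1 of gel at 250 nM, which stood apart. APAF1, the scaffold of the apoptosome, ranged from 21.2 to 31.3 CPM at 100 nM. At 250 nM it ranged from 13.2 to 15.7 CPM on plastic and measured 1.56, 21.1 and 11.003 CPM on gel. Its dose groups did not overlap on either substrate, yet the fitted log2 changes of -0.72 ± 0.48 (SE) and -1.42 ± 0.50 missed the threshold (edgeR adjusted p = 0.376 on plastic and 0.0718 on gel). With both libraries that stood apart left out, APAF1 was called lower on gel.

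PHLDA3, a lipid-binding inhibitor of AKT, measured 36.6, 25.6 and 33.1 CPM on plastic and 29.03, 39.2 and 38.6 CPM on gel at 100 nM. At 250 nM PHLDA3 measured 29.4, 27.7 and 22.4 CPM on plastic and 80.6, 29.6 and 37.1 CPM on gel. The gel values at 250 nM all lay above the plastic ones, by a small margin apart from replicate 1. The log2 change there was 0.90 ± 0.33 (SE, edgeR adjusted p = 0.359) with all libraries and 0.31 without the 2 that stood apart. SPATA18, a regulator of mitochondrial quality, ranged from 10.3 to 20.8 CPM over the 12 libraries.

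BAX, the protein that perforates the mitochondrial outer membrane, was high in 2 libraries and low in the other 10. It measured 37.1, 2.32 and 2.22 CPM on plastic and 1.63, 3.44 and 2.57 CPM on gel at 100 nM, and 2.07, 2.82 and 1.57 CPM on plastic and 47.6, 4.37 and 2.95 CPM on gel at 250 nM. The 2 high values belong to the same 2 libraries in which the ribosomal DNA share was low. The lower of the 2 was 8.49 times the highest of the other 10, and BAX was the only one of the 12329 genes tested for which this ratio reached 5, while it was above 1 in 629 genes and at least 2 in 21. The fitted changes with gel of -2.43 ± 1.08 (SE) at 100 nM (edgeR adjusted p = 0.489) and 3.13 ± 1.27 at 250 nM (edgeR adjusted p = 0.41) became 0.18 and 0.74 without these 2 libraries. In the other 10 libraries BAX had only 4 to 25 expected counts, so the values of 0.18 and 0.74 rest on few reads. The BAX gene lies at chr19:48954815-48961798, and no other gene of GENCODE 29 shares exon bases with it.

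**Figure D4:**
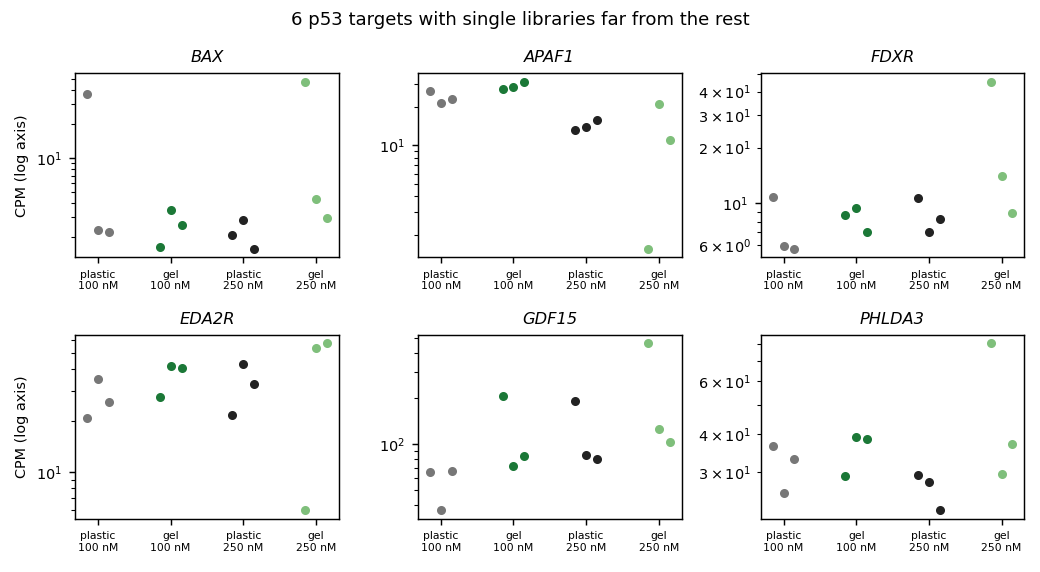
CPM on log axes in the 12 libraries, 3 dots per group in the order of replicates 1 to 3, for 6 p53 targets with single libraries far from the rest. Replicate 1 of plastic at 100 nM and replicate 1 of gel at 250 nM are high for BAX at 37.1 and 47.6 CPM, and replicate 1 of gel at 250 nM is low for APAF1 and EDA2R and high for FDXR, GDF15 and PHLDA3.

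The death receptors passed no test between groups. TNFRSF10B, the TRAIL receptor DR5, measured 81.7, 45.8 and 52.996 CPM on plastic and 36.9, 68.7 and 68.1 CPM on gel at 100 nM. It measured 61.1, 78.9 and 73.3 CPM on plastic and 88.2, 81.1 and 94.9 CPM on gel at 250 nM. The gel libraries at 250 nM were the highest of the 12 except for replicate 1 of plastic at 100 nM, which lay among them, and the log2 change with dose on gel was 0.60 ± 0.26 (SE, edgeR adjusted p = 0.136).

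FAS, the receptor of FAS ligand, measured 41.9, 34.1 and 27.5 CPM on plastic and 21.4, 39.6 and 41.6 CPM on gel at 100 nM. At 250 nM FAS measured 37.2, 40.4 and 49.9 CPM on plastic and 48.9, 51.5 and 50.1 CPM on gel. The dose groups of FAS did not overlap on gel, with a log2 change of 0.55 ± 0.25 (SE, edgeR adjusted p = 0.158). Exons of FAS overlap those of ACTA2, the smooth muscle actin gene, on the opposite strand, and exons of TNFRSF10B overlap RHOBTB2, so reads there cannot be assigned without strand. EDA2R, the receptor of an ectodysplasin isoform, ranged from 20.8 to 57.3 CPM in 11 libraries and was 5.95 CPM in replicate 1 of gel at 250 nM. TNFRSF10C was at 0 to 2.06 CPM, with 53.6 expected counts in all 12 libraries together.

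Of the 5 repair and nucleotide supply genes, 1 was called higher on plastic and 1 lower on gel, a share of 20% on each substrate beside backgrounds of 8.52% and 13.8%. With 5 genes a single call says little about the branch. XPC (chr3:14145147-14178783), which recognises helix distortions in nucleotide excision repair, measured 39.8, 31.4 and 42.2 CPM on plastic and 55.6, 49.5 and 54.0 CPM on gel at 100 nM. At 250 nM XPC measured 61.7, 70.9 and 66.0 CPM on plastic and 46.9, 75.4 and 78.8 CPM on gel. The plastic groups did not overlap, and XPC rose there 1.75-fold, from 37.8 ± 5.69 to 66.2 ± 4.57 CPM (SD, n = 3, edgeR adjusted p = 0.0338). On gel the log2 change was 0.33 ± 0.21 (SE, edgeR adjusted p = 0.301), with the lowest of the 250 nM values in replicate 1, a library that stood apart. Replicates 2 and 3 of gel at 250 nM lay above all gel values at 100 nM. The difference between the substrates in the change of XPC with dose did not pass its own test (edgeR adjusted p = 0.756). Exons of XPC overlap LSM3 and 2 other genes on the opposite strand.

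RRM2B (chr8:102204502-102239118), the p53-induced subunit of ribonucleotide reductase that supplies nucleotides for repair, measured 62.9, 76.0 and 74.1 CPM on plastic and 101, 94.9 and 112 CPM on gel at 100 nM. At 250 nM RRM2B measured 52.6, 66.7 and 51.4 CPM on plastic and 28.8, 68.0 and 65.3 CPM on gel. The gel libraries at 100 nM were the 3 highest of all 12. RRM2B fell 1.91-fold with dose on gel, from 102.7 ± 8.99 to 54.0 ± 21.9 CPM (SD, n = 3, edgeR adjusted p = 0.0347), and the log2 change of -0.93 became -0.65 without the 2 libraries that stood apart (edgeR adjusted p = 0.0212). On plastic the change was -0.32 ± 0.27 (SE, edgeR adjusted p = 0.481), and the difference between substrates was not called (edgeR adjusted p = 0.756).

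GADD45A, a stress protein that binds PCNA and stress kinases, measured 116, 110.4 and 119 CPM on plastic and 97.2, 119 and 121 CPM on gel at 100 nM. At 250 nM GADD45A measured 127, 92.0 and 106 CPM on plastic and 70.1, 104 and 117 CPM on gel. Its groups overlapped in every comparison. DDB2, the ultraviolet damage sensor, ranged from 19.2 to 45.6 CPM and POLH, the translesion polymerase eta, from 43.2 to 71.9 CPM, both with overlapping groups throughout.

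Among the metabolic and redox genes, TP53I3 rose with dose on both substrates. TP53I3 (chr2:24077433-24085861), the quinone oxidoreductase also known as PIG3, measured 9.61, 8.83 and 10.3 CPM on plastic and 8.89, 14.3 and 13.7 CPM on gel at 100 nM. At 250 nM TP53I3 measured 17.4, 21.6 and 26.3 CPM on plastic and 22.8, 18.5 and 29.1 CPM on gel. All 6 libraries at 250 nM lay above all 6 at 100 nM. The rise was 2.27-fold on plastic (log2 1.18 ± 0.27 SE, edgeR adjusted p = 0.0192) and 1.90-fold on gel (log2 0.93 ± 0.27, edgeR adjusted p = 0.0349). Exons of TP53I3 overlap FAM228B on the opposite strand.

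The other redox genes gave no call. SESN2, a sestrin that restrains the growth kinase mTORC1, measured 41.1, 43.7 and 96.9 CPM on plastic and 61.7, 67.9 and 80.4 CPM on gel at 100 nM, with 82.4, 42.2 and 65.6 CPM on plastic and 68.1, 89.8 and 76.3 CPM on gel at 250 nM. Its plastic groups were wide and all groups overlapped. FDXR, the mitochondrial ferredoxin reductase, measured 10.8, 5.89 and 5.70 CPM on plastic and 8.71, 9.49 and 6.99 CPM on gel at 100 nM. At 250 nM FDXR measured 10.8, 7.04 and 8.25 CPM on plastic and 45.3, 14.1 and 8.85 CPM on gel. The FDXR log2 change with gel at 250 nM was 1.40 ± 0.51 (SE, edgeR adjusted p = 0.359) and 0.36 without the libraries that stood apart.

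SESN1, the other sestrin of the list, was the only member whose gel libraries lay below its plastic libraries at both doses. It ranged from 12.5 to 14.3 CPM on plastic and 8.49 to 10.96 CPM on gel at 100 nM, and from 11.7 to 14.1 CPM on plastic and 10.2 to 11.4 CPM on gel at 250 nM. The average log2 change over doses was -0.36 ± 0.17 (SE, edgeR adjusted p = 0.398), so the small shift did not pass the test. TIGAR, a fructose bisphosphatase that slows glycolysis, ranged from 25.2 to 63.3 CPM, with its lowest value in replicate 1 of gel at 250 nM.

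In the growth control branch PLK2 fell with dose while the other genes did not pass the test. PLK2 (chr5:58453982-58460260), a polo-like kinase of the damage and centriole cycle, measured 60.3, 73.1 and 78.1 CPM on plastic and 60.2, 67.2 and 63.7 CPM on gel at 100 nM. At 250 nM PLK2 measured 42.2, 30.5 and 31.02 CPM on plastic and 27.8, 31.6 and 37.5 CPM on gel. All 6 libraries at 250 nM lay below all 6 at 100 nM. The fall was 2.04-fold on plastic (log2 -1.03 ± 0.20 SE, edgeR adjusted p = 0.0108) and 1.98-fold on gel (log2 -0.98 ± 0.20, edgeR adjusted p = 0.0092).

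BTG2, an antiproliferative partner of the deadenylase complex, measured 9.21, 14.4 and 6.81 CPM on plastic and 8.16, 20.1 and 18.7 CPM on gel at 100 nM. At 250 nM BTG2 measured 19.5, 24.4 and 21.2 CPM on plastic and 31.7, 31.1 and 32.03 CPM on gel. The 3 gel libraries at 250 nM were the highest of the 12, and the dose groups of BTG2 did not overlap on either substrate. The log2 changes with dose were 1.09 ± 0.34 (SE) on plastic and 1.01 ± 0.33 on gel, just outside the threshold (edgeR adjusted p = 0.0625 and 0.0576), and DESeq2 called both.

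PLK3, a stress-responsive polo-like kinase, measured 30.3, 16.1 and 26.9 CPM on plastic and 28.1, 36.6 and 40.3 CPM on gel at 100 nM, and 23.6, 19.7 and 28.7 CPM on plastic and 73.0, 22.3 and 27.0 CPM on gel at 250 nM. Its log2 change with gel at 250 nM of 0.78 ± 0.40 (SE, edgeR adjusted p = 0.545) was 0.02 without the libraries that stood apart. ZMAT3 was high and steady, at 323, 256 and 304 CPM on plastic and 359, 282 and 322 CPM on gel at 100 nM. At 250 nM ZMAT3 measured 411, 353 and 341 CPM on plastic and 341, 417 and 373 CPM on gel. The dose groups of ZMAT3 did not overlap on plastic, and the log2 change of 0.32 ± 0.18 (SE) was not called (edgeR adjusted p = 0.266).

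The secreted and surface genes gave no call, and GDF15 carried the largest substrate difference of the members apart from BAX and FDXR. GDF15 (chr19:18374731-18389176), a circulating stress cytokine of the TGF-beta superfamily, measured 65.8, 36.9 and 66.5 CPM on plastic and 208, 72.0 and 83.6 CPM on gel at 100 nM. At 250 nM GDF15 measured 192, 84.5 and 80.1 CPM on plastic and 464, 125 and 104 CPM on gel. Gel lay above plastic in all libraries at 100 nM, with a log2 change of 1.10 ± 0.56 (SE, edgeR adjusted p = 0.541), and overlapped it at 250 nM, with 0.96 ± 0.56 (edgeR adjusted p = 0.604). In 3 of the 4 groups replicate 1 was more than 2 times as high as the other libraries of its group. With both libraries that stood apart left out the changes were 1.24 at 100 nM and -0.08 at 250 nM.

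KITLG, the ligand of the KIT receptor, measured 30.4, 31.7 and 42.1 CPM on plastic and 19.8, 32.4 and 23.2 CPM on gel at 100 nM, and 29.8, 18.3 and 12.6 CPM on plastic and 31.1, 16.5 and 16.4 CPM on gel at 250 nM. The plastic dose groups of KITLG did not overlap (log2 -0.78 ± 0.34 SE, edgeR adjusted p = 0.164). On gel the log2 change with dose was -0.23 ± 0.34 (SE, edgeR adjusted p = 0.68). There replicates 2 and 3 at 250 nM lay below all values at 100 nM, and replicate 1, which stood apart, lay among them. PTCHD4, a patched-domain protein of the membrane, measured 12.2, 10.2 and 7.17 CPM on plastic and 16.7, 14.4 and 18.6 CPM on gel at 100 nM. At 250 nM PTCHD4 measured 10.5, 15.02 and 18.6 CPM on plastic and 16.9, 19.6 and 16.7 CPM on gel. The 3 gel libraries of PTCHD4 lay above the 3 plastic ones at 100 nM only, with a log2 change of 0.75 ± 0.27 (SE, edgeR adjusted p = 0.376), and 0.94 without the libraries that stood apart (edgeR adjusted p = 0.173).

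**Figure D5:**
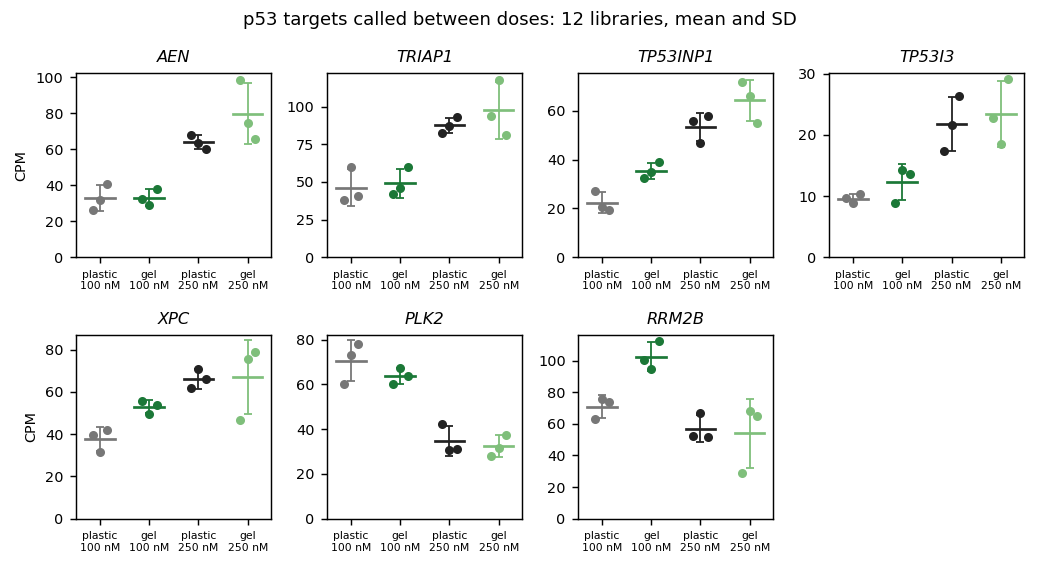
CPM in the 12 libraries for the 7 p53 targets called between doses on at least 1 substrate, with the mean and SD of each group of 3, on axes that start at 0. TRIAP1 and TP53I3 are higher and PLK2 lower in all 6 libraries at 250 nM than in all 6 at 100 nM, while the 250 nM gel group of XPC and RRM2B has its lowest value in replicate 1.

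The rest of the pathway was read through 62 further genes, of which 58 were tested: 11 upstream kinases and sensors, regulators of the pathway, and other known targets. Of these 58, 0 were called in any substrate comparison by edgeR, with 10, 7 and 11 at an unadjusted p under 0.05 at 100 nM, at 250 nM and on average (backgrounds 9.9%, 10% and 12.5%). MDM4, the partner of MDM2, ranged from 13.9 to 42.4 CPM with overlapping groups throughout.

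CDKN1A, the cell cycle inhibitor p21, rose with dose on gel. It measured 597, 493 and 421 CPM on plastic and 479, 664 and 788 CPM on gel at 100 nM, and 797, 543 and 625 CPM on plastic and 1299, 1129 and 1219 CPM on gel at 250 nM. The 3 gel libraries at 250 nM lay above all 9 others. The rise of CDKN1A on gel was 1.89-fold (edgeR adjusted p = 0.0184), and its log2 change with gel was 0.89 ± 0.22 (SE) at 250 nM (edgeR adjusted p = 0.218) and 0.62 ± 0.16 on average (edgeR adjusted p = 0.085).

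Between doses, 3 of the 58 were called on plastic (5.17% against a background of 8.52%) and 9 on gel (15.5% against 13.8%), so neither share was far above that of all genes. Without the 2 libraries that stood apart 7 were called on each substrate, 4 higher and 3 lower on plastic and 2 higher and 5 lower on gel. The share of all genes called in that fit is not given here. With all libraries, the fucosidase gene FUCA1 rose 4.06-fold on plastic (edgeR adjusted p = 0.015). STOM, a membrane scaffold gene, rose there 1.68-fold (edgeR adjusted p = 0.0402), and PRKDC, the DNA-dependent protein kinase, fell 4.20-fold (edgeR adjusted p = 0.0232). On gel CDKN1A, FUCA1 and the transporter gene SLC12A4 rose, and ATM, ATR, PRKDC, NBN, ANKRA2 and E2F7 fell. Of the 11 upstream kinases and sensors, 4 were lower at 250 nM on gel (background 6.9%), and 3 without the libraries that stood apart, where NBN was no longer called (edgeR adjusted p = 0.0601). PRKDC measured 163, 126 and 124 CPM at 100 nM and 2.64, 27.7 and 29.5 CPM at 250 nM on gel, and ATM 67.7, 47.6 and 45.1 CPM and 19.8, 30.1 and 19.4 CPM, with no overlap in either gene. Leaving out those libraries, the log2 change of PRKDC on gel was -2.29 in place of -2.82.

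The strand setting of the counting is not given in the sources used here. In GENCODE 29 the exons of 14 of the 32 members overlap another gene, 12 of them on the opposite strand and 5 on the same strand, so reads at those exons cannot be told apart between the genes. Nothing in the labels says that replicates were separate cultures, so p-values measure the spread between these libraries, which may be technical.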

How the data were processed

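Polyadenylated RNA of 12 libraries was analysed, 3 in each of 4 groups taken from the sample titles. Per the file headers the authors' values are RSEM output: an expected count per gene, in fractional reads, and TPM, scaled by RSEM for transcript length and library total before they were deposited. The lengths printed come from another deposited RSEM column, per the file headers. Trimmomatic, STAR, RSEM, DESeq2 1.36.0 and GRCh38 are listed in the submitters' processing notes. For the annotation release, the strand setting and any collapsing by molecular identifiers, the sources used here give nothing. Titles are followed where protocols differ from them (µM in place of nM, PDMS in place of a hydrogel).

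Symbols came from the supplied name table (61369 of 61541 identifiers matched) and coordinates from GENCODE 29. Expected counts were rounded, filtered by filterByExpr and scaled by TMM in R 4.3.3 with edgeR 4.0.16. The quasi-likelihood fit had a mean for each group (8 residual degrees of freedom) and gave 6 comparisons, adjusted by Benjamini and Hochberg over 12329 genes and called under 0.05. CPM use effective library sizes, SEs come from the F statistic, and the biological coefficient of variation was 0.299. The fit was first tested on simulated data. Alternatives were RLE and upper-quartile factors, DESeq2 1.42.0, in limma 3.58.1 voom with weighted samples, and limma-trend on log2(TPM + 1) for genes with mean TPM of at least 1, no filter, only the groups compared, a replicate block and leaving out each library. Leaving out both libraries that stood apart, or the ribosomal DNA loci, was added after seeing the data.

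The members and lists were chosen with earlier results of these data known, so no list was tested as a set. Values in every library are given for members called in any comparison, for the 5 with the largest change in each substrate comparison and their average (mean CPM of at least 1), and for the 2 of each branch with the highest mean TPM. CDKN1A and MDM4 were named by the same rule, the result of 1 gene it also names is not reported here, and the other pathway genes named were chosen after their values were seen. Promoters and exon overlaps were read with Python 3.11.15.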

Additional observations from a re-analysis of the deposited data

How the results depend on the processing

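RLE and upper-quartile factors, DESeq2 and the fit without the ribosomal DNA loci gave 0 called p53 targets in each substrate comparison, as did each fit without 1 library and the fit without both libraries that stood apart. By limma-voom with sample weights 1 member was called for gel at 100 nM and 2 on average. With no filter 2 were called for gel at 100 nM, 2 at 250 nM, 1 on average and 1 for the difference between doses. With dose on plastic 6 calls became 2 by limma-trend on log2(TPM + 1) and 1 to 8 over the fits that left out 1 library. With dose on gel 6 calls became 11 with no filter, 2 in the fit of only the groups compared and 2 to 7 over the fits that left out 1 library. The share of all genes called in each alternative fit is not given here. A moved count is therefore not read as a result about the members. The causes were not tested. Where a fit left a group with 2 libraries, the shared estimate of the spread was used.

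Whether replicate numbers pair the samples was not settled. Of 18 same-numbered pairs of libraries, 8 had deviations that correlated above 0.1, over a range from -0.236 to 0.323. Libraries with different numbers were not compared in this way. With the replicate block 0 members were called in each substrate comparison, 7 with dose on plastic and 7 with dose on gel, again without the share of all genes. Medians of the members' changes moved by less than the spread between libraries, an SD of 0.155, under all alternatives run. That limit is wider than the gel medians of 0.126 at 100 nM and 0.133 on average. It therefore cannot show that those medians stayed above 0.

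Followed singly were 12 called dose values and 15 of the largest substrate values of members. Over the alternatives 47 of 264 refits of the former lost the call and 6 of 324 refits of the latter gained it, with 0 called values reversed. The common biological coefficient of variation was 0.299, with 3 libraries a group. The median standard error of a member was 0.261 to 0.271 for gel at a single dose. Log2 changes under 1 with gel were hard to call, and changes near or above 1 also missed the threshold. At 250 nM PHLDA3 at 0.90 ± 0.33 (SE) and FDXR at 1.40 ± 0.51 each had an edgeR adjusted p of 0.359.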
